A study of Mus musculus with 6 samples.

Results

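The mouse genes Zfp900 to Zfp999 are a numbered block of zinc finger genes, and 63 protein-coding genes with such a symbol were in the count table of 55487 genes. They were taken by symbol and annotated gene type, and Zfp939, annotated as a pseudogene, was not among them. That rule uses no measured value, but this block was chosen with earlier results of these data known. Its shares beside those of all genes are therefore descriptions. Of the 63 genes, 55 had enough counts to be tested, among 15748 genes tested in all. The libraries came from D6AdP mouse embryonic stem (ES) cells, whose 2 Ddx6 alleles both encode a fusion with an auxin-inducible degron (AID) and mCherry. A single Dcp1a allele is fused to EGFP, and a FLAG-tagged OsTIR1 transgene provides the plant factor that marks AID fusions for destruction once auxin is added. The auxin analog 5-Ph-IAA was given at 500 nM for 0, 3 or 6 h, with 2 polyA RNA-seq libraries at each time. The 0 h libraries carry the same 3 alterations without the analog, and no library of cells lacking the degron or OsTIR1 was compared here. All cultures were grown on mitotically blocked fibroblast feeder cells with leukemia inhibiting factor and the kinase inhibitors PD0325901 and CHIR99021, and the labels give 1 cell line and do not say that replicates were separate cultures. A p-value here therefore speaks for the scatter of these libraries alone, and that scatter may be technical.

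Most of these genes encode KRAB zinc finger proteins. A tandem array of C2H2 fingers, each a short fold held by a zinc ion, reads DNA, and the KRAB box at the start of the protein recruits Trim28, which brings the histone methyltransferase Setdb1 and heterochromatin proteins. In ES cells such proteins are known for silencing retrotransposons, and the genes lie in clusters that arose by local duplication, so that neighbours are close copies of each other. The helicase DDX6 keeps bound mRNAs from being translated, stimulates their decapping and holds together P-bodies, granules of the cytoplasm in which untranslated mRNA collects. Messenger RNAs of zinc finger genes are known to be enriched in P-bodies.

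The family features were found in nearly all of the genes. Coding sequences were complete in GENCODE M21, on build GRCm38, for 62 of the 63. In the translated sequence a finger was counted where 2 cysteines 2 to 4 residues apart were followed, after 12 residues, by 2 histidines 3 to 5 residues apart. By that pattern 56 of the 62 genes had fingers, from 3 in Zfp979 to 21 in Zfp974, with a median of 11 over all 62. The linker that joins one finger to the next, the 5 residues threonine, glycine, glutamate, lysine and proline, occurred in 57 of the 62 genes (91.9%), against 2.15% of 21919 coding genes and 74.2% of 364 Zfp genes. A KRAB A box was taken as present where, in the first 250 residues, the pair glutamate and tryptophan (or glycine) was followed 6 to 14 residues later by leucine, tyrosine, any 2 residues, valine and methionine. A second accepted form was glutamate, glutamate and tryptophan, followed 4 to 20 residues later by leucine or valine, tyrosine, any residue, an acidic residue or asparagine, and valine. One of these patterns was found in 57 of the 62 genes (91.9%), against 1.29% of all coding genes, and was not found in Zfp956, Zfp957, Zfp968, Zfp974 or Zfp986. A pattern match describes the annotated coding sequence, and for genes with a short annotated model, such as Zfp986 with 21 residues, a missing match says little.

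Short coding windows show how alike the genes are at the KRAB box and the finger linker, in neighbours and also between chromosomes. The windows hold 30 bases of the coding strand, written 5′ to 3′, from GENCODE M21. The first set covers the start of the KRAB A box match, and the capitals mark the codons of glutamate, glutamate and tryptophan.
Zfp988 (chr4:147329012-147329041, plus strand): gacttctcactgGAGGAATGGgaatgtctc
Zfp979 (chr4:147615347-147615376, minus strand): gacttctcatcaGAGGAATGGgaatgtctc
Zfp942 (chr17:21930433-21930462, minus strand): gacttctcacagGAGGAATGGgaatgtctt
Zfp936 (chr7:43187200-43187229, plus strand): cacttcactcggGAGGAGTGGtccttgctg
Zfp970 (chr2:177473316-177473345, plus strand): aacttcactcagGAAGAGTGGgctttgctg
Zfp961 (chr8:71965824-71965853, plus strand): cgctttacccaaGAAGAGTGGactttgctg
The window of Zfp988 was letter for letter the same in Zfp987 and Zfp990. That of Zfp970 was shared by 10 of the genes, among them Zfp950 on chromosome 19. The windows of Zfp942 and Zfp936 were each shared by 4 genes of their own chromosome cluster. Those of Zfp979 and Zfp961 had no second copy among the 57 windows, which came in 36 distinct forms.

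The second set covers the first finger linker of the protein, with the 5 linker codons in capitals.
Zfp988 (chr4:147331891-147331920, plus strand): attcatACAGGAGAGAAACCTtacaaatgc
Zfp984 (chr4:147755505-147755534, minus strand): attcatACAGGAGAGAAACCTtacaaatgt
Zfp961 (chr8:71968467-71968496, plus strand): actcacACTGGGGAGAAACCTtttgaatgt
Zfp934 (chr13:62518349-62518378, minus strand): atacgtACTGGAGAGAAACCCttcaaatgt
The Zfp988 form was shared by 5 genes, among them Zfp987 and Zfp979. The Zfp984 form was shared by 7, namely Zfp984, Zfp980, Zfp991 and Zfp992 on chromosome 4 and Zfp943, Zfp994 and Zfp995 on chromosome 17. A shared window is therefore not a sign of neighbouring genes. In all, 41 distinct linker windows were found in 57 genes, and 1 protein held up to 16 linkers. A read that falls on such a window can match several genes equally well.

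That limit was measured over whole genes as the share of 50-base words of a gene's exons that occur in no other annotated gene. The share was at least 90% in 23 of the 63 genes and under 20% in 12, and it ran from 0 in Zfp935, Zfp967 and Zfp969 to 100 in Zfp949. How reads with several matches were counted is not given in the sources used here, so values of genes with a low share are uncertain. The plot of level against uniqueness shows where this applies.

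**Figure D1:**
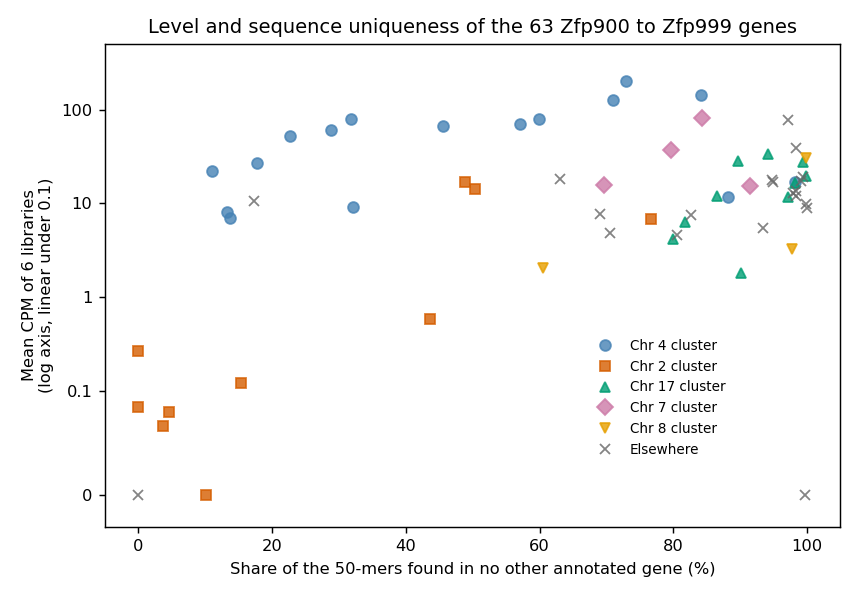
Mean level over the 6 libraries (y axis, CPM on a log axis that is linear under 0.1) against the share of 50-base words found in no other annotated gene (x axis, percent), 1 point for each of the 63 genes, marked by chromosome cluster. The chromosome 2 genes with few unique words lie under 1 CPM, while the chromosome 4 genes spread over shares from 11.0% to 98.2%, and the highest of them, Zfp979, lies at 72.9%.

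The genes fell into 5 clusters of at least 3 members with gaps of no more than 1 Mb, which held 43 of the 63. The cluster on chromosome 4 (chr4:145510759-147848366) had 16 members, all tested, with a median unique share of 38.8%. The deletion of zinc finger genes in this region is known to release retrotransposons in ES cells. The cluster on chromosome 2 (chr2:175372436-178078476) had 10 members, of which 4 were tested, with a median unique share of 12.7%. The cluster on chromosome 17 (chr17:21567008-22867134) had 10 members, all tested, with a median unique share of 92.2%. Smaller clusters lay on chromosome 7 (4 members) and chromosome 8 (3 members), and 20 genes lay elsewhere.

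Levels differed widely between the genes before any treatment was considered. Levels are given as CPM, a gene's counts as a share of its library's total after scaling by trimmed mean of M values (TMM) factors, and between genes as RPKM, the same per kilobase of exon. The means over 6 libraries ran from 0.589 CPM in Zfp972 to 202 CPM in Zfp979 among the 55 tested genes, with a median of 16.4 CPM beside 18.3 CPM over all genes tested. Per kilobase, the 5 highest over all libraries were Zfp985, Zfp979, Zfp978, Zfp990 and Zfp988, all in the chromosome 4 cluster. At 0 h their means were 52.5, 52.6, 41.8, 41.8 and 32.3 RPKM, and at 6 h 48.7, 44.0, 39.6, 31.7 and 23.4 RPKM. At 0 h Zfp985 and Zfp979, and likewise Zfp978 and Zfp990, differed by less than the spread between libraries. The share of unique words was 84.1% in Zfp985, 72.9% in Zfp979 and 22.6% in Zfp978.

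Too low to test were 8 genes, of which 6 lie in the chromosome 2 cluster, namely Zfp965, Zfp966, Zfp967, Zfp968, Zfp969 and Zfp973. The others were Zfp935 on chromosome 13 and Zfp957 on chromosome 14. Zfp935, Zfp957 and Zfp966 were at 0 counts in every library, and 3 counts, the limit that a count of 0 allows, stood for 0.139 to 0.181 CPM. The highest value of an untested gene in any library was 7 counts, or 0.422 CPM, for Zfp967. Zfp957, with a unique share of 99.8% and no overlapping gene, was at 0 counts, which allows up to 0.139 to 0.181 CPM in each library. The other 7 genes had unique shares of 0 to 15.3%, and all exons of Zfp935 overlap other genes on the same strand, so their low counts cannot be told apart from reads left uncounted.

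Library totals ran from 16357142 to 21846959 counts, and the 63 genes took 0.157% to 0.178% of them. The level of Ddx6 mRNA was 259 ± 12.4 CPM before treatment, 270 ± 1.98 CPM after 3 h and 253 ± 7.87 CPM after 6 h (SD, n = 2), which does not check the treatment, since the degron acts on the protein. None of the 15 ES cell markers was at 0, and their summed level was 6874.6 to 7088.3 CPM in the 0 h libraries, 7092.0 to 7150.3 CPM at 3 h and 6430.1 to 6608.3 CPM at 6 h. The 30 feeder fibroblast markers were also all detected, at 25053 to 28921 CPM per library. What part of the zinc finger counts came from feeder cells was not tested, and in bulk RNA fewer cells of a type and less RNA per cell cannot be told apart.

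The first comparison, 3 h against 0 h, asks which zinc finger mRNAs moved soon after the analog was added. No gene of the 55 was called changed by edgeR's quasi-likelihood test at a Benjamini-Hochberg adjusted p under 0.05, against 0.14% of all genes tested (0.0508% higher and 0.0889% lower). At an unadjusted p under 0.05 there were 14 such genes (25.5%), against 1679 (10.7%) of all genes tested. DESeq2 also called 0 of the 55 and 12 of all genes, and limma voom called 1 and 30. The fitted log2 fold changes ran from -0.43 to 0.51, and 45 of 55 were below 0, with a median of -0.06 beside 0.00 over all genes. The 30 feeder markers were at a median of -0.13 in the same comparison, all 30 below 0 and 0 called, and their part in the direction of the zinc finger genes was not tested.

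Zfp990 (ENSMUSG00000078503, chr4:145510759-145539188), at the edge of the chromosome 4 cluster, came nearest to a call at 3 h. It stood at 151 and 142 CPM at 0 h, 119 and 129 CPM at 3 h and 108 and 114 CPM at 6 h. Every later library was below both 0 h libraries, and the 3 h and 6 h libraries did not overlap either. The log2 fold change at 3 h was -0.24 ± 0.05 (standard error, SE) with an edgeR adjusted p of 0.0611. It was called in 5 of 10 alternatives, among them limma voom, and in 3 of the 6 fits without 1 library (0 h replicate 2, 6 h replicate 1 or 6 h replicate 2), where the lowest adjusted p was 0.0058, and the lowest over all alternatives was 0.00397 with the replicate block. Zfp990 was singled out here after its values were seen.

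The second comparison, 6 h against 0 h, asks what had changed by the end of the series. By 6 h, 14 genes were called lower and 5 higher, out of 55 tested. The 14 that fell were Zfp936, Zfp942, Zfp944, Zfp948, Zfp951, Zfp959, Zfp961, Zfp979, Zfp980, Zfp984, Zfp986, Zfp987, Zfp988 and Zfp990, and the 5 that rose were Zfp934, Zfp937, Zfp953, Zfp956 and Zfp994. The share called was 34.5%, against 22.3% of all genes tested. In the lower direction it was 25.5% against 12.3%, and in the higher direction 9.09% against 10.0%. The median log2 fold change of the 55 genes was -0.11, beside 0.00 over all genes, and 37 of them were below 0. All changes were small: the fitted values ran from -0.58 to 0.56, and 1 called gene, Zfp986, reached 1.5-fold.

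**Figure D2:**
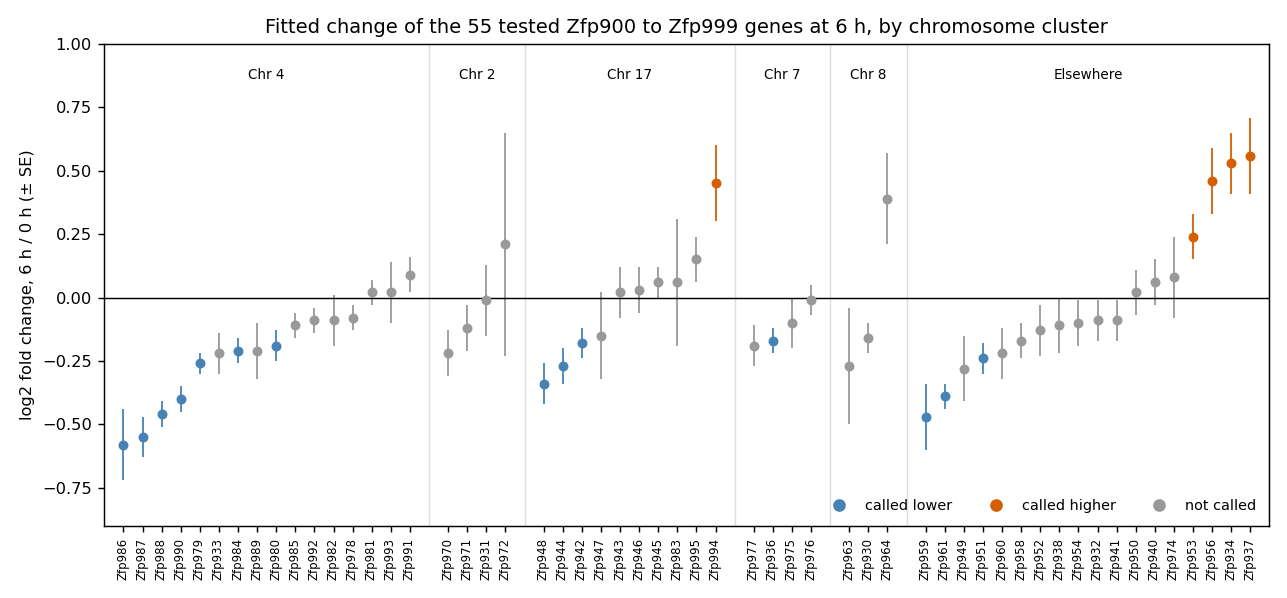
Fitted log2 fold change of 6 h over 0 h (y axis, bars ± SE) for the 55 tested genes, ordered within each chromosome cluster, with genes called lower, called higher and not called in 3 colours. In the chromosome 4 cluster 7 of 16 genes were called lower and 0 higher, while the genes called higher lie on chromosome 17 (Zfp994) and outside the clusters. Over all genes tested 12.3% were called lower and 10.0% higher.

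The summed level of the 63 genes was 1748 and 1805 CPM at 0 h, 1622 and 1712 CPM at 3 h and 1550 and 1597 CPM at 6 h. The 6 h sums lay below all others, and the 3 h sums between the 0 h and 6 h sums. The summed ES cell markers were also lowest at 6 h, with 6 of 15 called lower (Esrrb at -0.42 ± 0.03 among them) and 4 higher than at 0 h, and the part of this in the zinc finger sums was not tested. The falling genes ran from 8.42 to 216 CPM at 0 h, with a median of 52.2 CPM, while the rising ones had a median of 5.57 CPM. Among the 11 genes of at least 50 CPM, 7 were called lower and 0 higher, against 26.2% lower and 7.76% higher among all genes of that level. Among the 44 tested genes under 50 CPM, 7 (15.9%) were called lower and 5 (11.4%) higher, against 7.61% and 12.6% of all genes of 1 to 50 CPM. The median log2 fold change was -0.19 in the 11 genes and -0.10 in the 44. These shares and medians are descriptions and were not tested against each other. Small changes are more easily called at high counts, and the part of this in the shares was not tested.

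Falls on chromosome 4 included the 2 largest fitted values, those of Zfp986 and Zfp987. Zfp988 (ENSMUSG00000078498, chr4:147305674-147333734), a protein with 11 finger linkers that shares both coding windows with Zfp987, stood at 85.9 and 95.0 CPM at 0 h, 78.3 and 84.5 CPM at 3 h and 65.2 and 66.0 CPM at 6 h. Both 6 h libraries were below all 4 others, and no overlap was left between 0 h and 3 h. It fell by 0.46 ± 0.05 on the log2 scale (adjusted p = 1.2e-05), from 90.5 ± 6.47 to 65.6 ± 0.592 CPM (SD, n = 2). Its close copy Zfp987 (ENSMUSG00000066009, chr4:146097298-146126621) had 25.1 and 26.5 CPM at 0 h, 22.3 and 23.2 CPM at 3 h and 19.3 and 16.0 CPM at 6 h. The 3 times did not overlap in this gene, and it fell by 0.55 ± 0.08 (adjusted p = 0.000154). Of the 50-base words of Zfp988, 54.4% also occur in Zfp987. Only 11.0% of those of Zfp987 are its own, and 73.4% also occur in Gm8935. How reads with several matches were counted is not given, so these values, and those of Zfp986, cannot be taken as independent measurements. Zfp986 (ENSMUSG00000078500, chr4:145868794-145899975), with a unique share of 13.6% and 66.3% of its words also in Zfp988, had 7.93 and 9.46 CPM at 0 h, 6.29 and 6.71 CPM at 3 h and 5.19 and 6.39 CPM at 6 h. Its 3 h and 6 h libraries overlapped and both lay below 0 h, with a 6 h change of -0.58 ± 0.14 (adjusted p = 0.00539).

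Zfp990 and Zfp979 were the most abundant genes that fell. From its 0 h level Zfp990 went down in both later pairs of libraries, with a 6 h change of -0.40 ± 0.05 (adjusted p = 1.63e-05). Zfp979 (ENSMUSG00000066000, chr4:147611937-147642513), which has 3 fingers by the pattern, had 210 and 222 CPM at 0 h, 200 and 216 CPM at 3 h and 180 and 181 CPM at 6 h. Its 0 h and 3 h libraries overlapped, and both 6 h libraries lay below them, with a change of -0.26 ± 0.04 (adjusted p = 0.00029). Zfp984 had 70.9 and 71.6 CPM at 0 h, 67.7 and 72.0 CPM at 3 h and 60.4 and 62.5 CPM at 6 h, the same order as in Zfp979, and fell by 0.21 ± 0.05 (adjusted p = 0.00404). Its unique share was 45.5%, and 46.9% of its words also occur in Gm13212. On the same strand, 9.68% of its exon length overlaps Gm20707. Zfp980, with a change of -0.19 ± 0.06, was close to the threshold (adjusted p = 0.0459) and shares 58.6% of its 50-base words with Rex2.

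Abundant neighbours in the same cluster were not called. Zfp985 (ENSMUSG00000065999), the highest per kilobase, stood at 150 and 151 CPM at 0 h, 134 and 147 CPM at 3 h and 135 and 145 CPM at 6 h. Its 0 h libraries were above all 4 others, which overlapped, and the 6 h change of -0.11 ± 0.05 missed the threshold (adjusted p = 0.118). It was called without 6 h replicate 2 and with the replicate block. Zfp978 (-0.08 ± 0.05), Zfp992 (-0.09 ± 0.05) and Zfp991 (0.09 ± 0.07) were not called in any of the fits run. Of the other 5 uncalled genes of the cluster at 6 h, fitted changes lay between -0.22 in Zfp933 and 0.02 in Zfp981 and Zfp993. Low unique shares of 22.6% in Zfp978, 17.8% in Zfp991 and 13.2% in Zfp993 leave their values uncertain.

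Falls were also measured in genes whose sequence is nearly their own. Zfp961 (ENSMUSG00000052446, chr8:71951038-71993792), with a unique share of 97.2%, had 85.0 and 91.0 CPM at 0 h, 74.6 and 79.3 CPM at 3 h and 64.9 and 69.5 CPM at 6 h. The libraries of the 3 times did not overlap, with 0 h highest and 6 h lowest. The 6 h change was -0.39 ± 0.05 (adjusted p = 4.74e-05), and 4.18% of its exon length overlaps Cyp4f18 on the opposite strand. Zfp948 on chromosome 17 (99.9% unique) had 22.2 and 22.5 CPM at 0 h, 18.2 and 20.4 CPM at 3 h and 17.0 and 18.3 CPM at 6 h, where 3 h and 6 h overlapped below 0 h. It fell by 0.34 ± 0.08 (adjusted p = 0.0049). Zfp951 on chromosome 5 (98.4% unique) had 40.0 and 41.4 CPM at 0 h, 39.7 and 41.5 CPM at 3 h and 35.2 and 33.7 CPM at 6 h, so that the 6 h libraries alone stood apart, at -0.24 ± 0.06 (adjusted p = 0.00549). Of the 22 tested genes of at least 90% unique words, 4 (18.2%) were called lower and 2 (9.09%) higher, against 12.3% and 10.0% of all genes tested. Of the 33 tested genes under 90%, 10 (30.3%) were called lower and 3 (9.09%) higher. Both sets had a median of -0.11, that of all 55.

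Among the remaining falls, Zfp959 on chromosome 17 had 7.62 and 9.23 CPM at 0 h, 7.80 and 8.60 CPM at 3 h and 6.15 and 6.07 CPM at 6 h. Its 6 h libraries were below the other 4, which overlapped, and the change was -0.47 ± 0.13 (adjusted p = 0.0155). Zfp944 in the chromosome 17 cluster fell by 0.27 ± 0.07 (adjusted p = 0.0115), from 30.7 ± 1.18 to 25.4 ± 0.884 CPM (SD, n = 2). Zfp936 on chromosome 7 (-0.17 ± 0.05, adjusted p = 0.0125) and Zfp942 on chromosome 17 (-0.18 ± 0.06, adjusted p = 0.0427) were the smallest falls and are named after their values were seen.

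The 5 genes that rose had 0 h means of 3.92 to 17.3 CPM, and all but Zfp953 were under the median level of the tested genes. Zfp934 (ENSMUSG00000074865, chr13:62479827-62571199) had 6.27 and 6.54 CPM at 0 h, 7.80 and 7.31 CPM at 3 h and 8.92 and 9.61 CPM at 6 h. The 3 times did not overlap and followed each other upwards, for a 6 h change of 0.53 ± 0.12 (adjusted p = 0.00316). Zfp937 (ENSMUSG00000060336, chr2:150218073-150240725), which lies outside the chromosome 2 cluster but shares its KRAB window, had 3.58 and 4.27 CPM at 0 h, 4.97 and 5.00 CPM at 3 h and 6.15 and 5.47 CPM at 6 h. It too went up without overlap, by 0.56 ± 0.15 (adjusted p = 0.0141). Its 6 libraries held 69 to 108 reads each. Unique shares were 69.1% in Zfp934 and 70.6% in Zfp937.

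Zfp956 (ENSMUSG00000045466, chr6:47953390-47965300), 1 of the genes without the KRAB pattern, had 4.87 CPM in both 0 h libraries, 4.82 and 4.95 CPM at 3 h and 6.75 and 6.66 CPM at 6 h. The rise of 0.46 ± 0.13 (adjusted p = 0.019) thus lay in the 6 h libraries alone, and 9.77% of its exon length overlaps Zfp783 on the same strand. Zfp953 (ENSMUSG00000098905, chr13:67339306-67360605) had 16.8 and 17.8 CPM at 0 h, 14.9 and 15.5 CPM at 3 h and 18.9 and 22.2 CPM at 6 h. Its lowest libraries were those of 3 h, and the change from 0 h was 0.24 ± 0.09 (adjusted p = 0.0498). Zfp994 on chromosome 17 had 5.44 and 5.70 CPM at 0 h, 5.82 and 6.11 CPM at 3 h and 6.27 and 8.86 CPM at 6 h. Its 6 h libraries differed from each other by more than the times did, and the change was 0.45 ± 0.15 (adjusted p = 0.043).

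**Figure D3:**
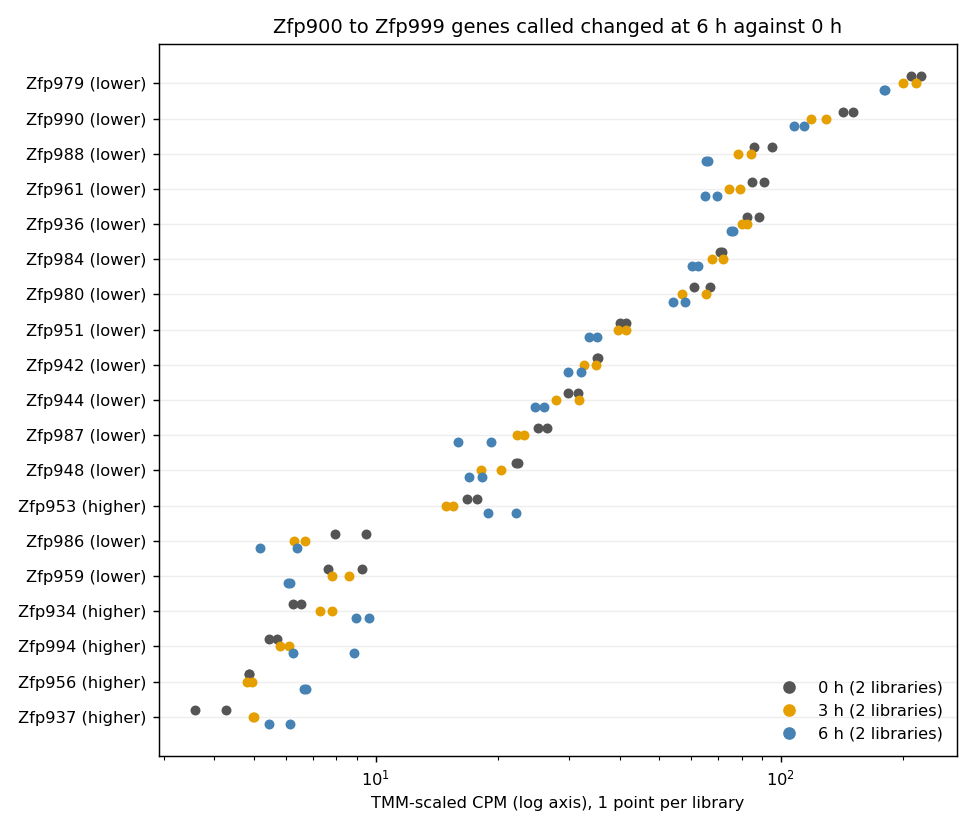
Level of the 19 genes called at 6 h (rows, ordered by their 0 h mean) in each library (x axis, TMM-scaled CPM on a log axis), with 1 point for each of 2 libraries at 0, 3 and 6 h. The 0 h and 6 h points do not overlap in any of the 19 genes, which were picked for a difference between these times. The 3 h points of Zfp953 lie below its 0 h and 6 h points.

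In all 14 genes that fell and all 5 that rose, the 0 h and 6 h libraries did not overlap. That was also so in 19 of the 36 tested genes that were not called. A call favours such separation, and the share over all genes tested was not counted, so it is no result about these genes. The 3 h mean lay between the 0 h and 6 h means in 14 of 14 falling genes, in 4 of 5 rising genes and in 16 of 36 uncalled genes. Called genes were picked for a wide gap between 0 h and 6 h, which makes a 3 h mean between them likelier. These counts are therefore not read as a gradual course, and the same count over all called genes was not made. By cluster, 7 of 16 chromosome 4 genes fell and 0 rose, 3 of 10 chromosome 17 genes fell and 1 rose, 1 of 4 chromosome 7 genes fell, and none of the 4 tested chromosome 2 genes or 3 chromosome 8 genes was called at 6 h against 0 h by edgeR. On chromosomes 2 and 8 the counts at an unadjusted p under 0.05 were 1 of 4 and 2 of 3, against 34.6% of all genes tested, and DESeq2 called 0 in both. Of the genes elsewhere, 4 of 18 rose and 3 fell.

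Over the 19 calls at 6 h against 0 h and the 13 at 6 h against 3 h, 9 of 32 were made in every fit run, and those at 6 h against 0 h were Zfp934, Zfp961, Zfp979, Zfp984, Zfp987, Zfp988 and Zfp990. DESeq2 called 8 of the 19, these 7 and Zfp986. Without 0 h replicate 1 the calls of Zfp937, Zfp942, Zfp953, Zfp956 and Zfp994 were lost, and without 0 h replicate 2 those of Zfp936, Zfp942, Zfp944, Zfp953, Zfp956, Zfp959, Zfp980, Zfp986 and Zfp994. Without 6 h replicate 1 the calls of Zfp937, Zfp942, Zfp944, Zfp948, Zfp956, Zfp959, Zfp980 and Zfp986 were lost, and without 6 h replicate 2 those of Zfp936, Zfp951, Zfp953, Zfp956, Zfp959 and Zfp994. Leaving out either 3 h library ended the calls of Zfp942, Zfp953 and Zfp994.

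The third comparison, 6 h against 3 h, shares its 6 h libraries with the second, so the values are set side by side and no overlap is read as support. Between 3 and 6 h, 9 genes were called lower and 4 higher, or 23.6% against 21.7% of all genes tested, a share near that of all genes. In the lower direction it was 16.4% against 11.8%, and in the higher direction 7.27% against 9.89%. The median was -0.07 beside 0.01 over all genes. Of the 22 tested genes of at least 90% unique words, 2 (9.09%) were called lower and 3 (13.6%) higher, with a median of 0.01. Of the 33 under 90%, 7 (21.2%) were called lower and 1 (3.03%) higher, with a median of -0.10. The larger share of falls was thus not seen in the genes of mostly unique sequence. The 9 lower genes were Zfp944, Zfp951, Zfp959, Zfp961, Zfp979, Zfp984, Zfp987, Zfp988 and Zfp990, all of them also lower than at 0 h. The largest of these changes were -0.43 ± 0.13 in Zfp959 (adjusted p = 0.0268), -0.37 ± 0.08 in Zfp987 (adjusted p = 0.00492) and -0.31 ± 0.05 in Zfp988 (adjusted p = 0.00064). Zfp951 changed by -0.24 ± 0.06, Zfp944 by -0.23 ± 0.07 and Zfp961 by -0.20 ± 0.05. The smallest, named after their values were seen, were Zfp979 (-0.20 ± 0.04, adjusted p = 0.00258), Zfp984 (-0.19 ± 0.05, adjusted p = 0.0114) and Zfp990 (-0.16 ± 0.05, adjusted p = 0.0225).

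Rises between 3 and 6 h were called in 4 genes. Zfp964 (ENSMUSG00000091764, chr8:69654479-69666982) had 3.52 and 2.87 CPM at 0 h, 2.03 and 2.68 CPM at 3 h and 4.22 and 4.13 CPM at 6 h. Its 3 h libraries were the lowest and its 6 h libraries the highest, and the change from 3 h was 0.82 ± 0.19 (adjusted p = 0.00621), while that from 0 h was 0.39 ± 0.18 (adjusted p = 0.141). Zfp953, with the same order of times, rose by 0.44 ± 0.09 (adjusted p = 0.00179), and Zfp956 by 0.46 ± 0.13 (adjusted p = 0.0205). Zfp981 in the chromosome 4 cluster had 83.6 and 79.0 CPM at 0 h, 69.8 and 75.4 CPM at 3 h and 81.9 and 82.3 CPM at 6 h. It was lowest at 3 h and back within the 0 h range at 6 h, with changes of 0.18 ± 0.05 from 3 h (adjusted p = 0.0156) and 0.02 ± 0.05 from 0 h. Feeder fibroblast markers were at a median of 0.13 in this comparison, with 9 of 30 called higher and 0 lower, and their part in these rises was not tested.

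Zfp953 and Zfp988 kept their call from 3 to 6 h in every fit run. The calls of Zfp956 and Zfp959 were lost without any 1 of the 3 h or 6 h libraries. Without 3 h replicate 1 those of Zfp964 and Zfp981 were lost as well, and without 3 h replicate 2 those of Zfp944, Zfp951, Zfp961, Zfp979, Zfp984, Zfp987 and Zfp990. Without 6 h replicate 1 those of Zfp944, Zfp961, Zfp984 and Zfp990 were lost, and without 6 h replicate 2 those of Zfp944, Zfp951, Zfp981 and Zfp987. In all, 34 of the 55 tested genes were not called in any of the 3 comparisons, and of these Zfp977 on chromosome 7 (16.8 and 16.7 CPM at 0 h, 14.7 CPM in both 6 h libraries, -0.19 ± 0.08, adjusted p = 0.119) and Zfp985 were among the most abundant per kilobase.

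What the genes share in sequence was set beside the calls. The GC content of the coding sequence had a median of 38.04% in the 62 genes, against 49.2% in other tested Zfp genes and 53.28% in all tested protein-coding genes. It was 36.94% in the genes that fell, 38.82% in those that rose and 37.89% in those not called. The median protein length was 515.5, 503 and 507 residues in the same order, and the number of fingers was 11 in each. The 3′ UTR had a median length of 870 bases in genes that fell, 1165 in genes that rose and 854 in genes not called. These are medians of 14, 5 and 35 genes, given as a description. Of the 51 tested genes with the KRAB pattern, 13 fell and 4 rose, and of the 4 tested genes in which it was not found or not sought for want of a complete coding sequence, 1 fell (Zfp986) and 1 rose (Zfp956).

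The other Zfp genes of the table give a comparison of the same kind. Of 302 such genes 286 were tested, and at 6 h 53 (18.5%) were called lower and 28 (9.79%) higher than at 0 h, with a median of -0.04. Of those with the KRAB pattern, 18 of 117 were lower and 3 higher (median -0.07), and of those without it, 35 of 169 were lower and 25 higher (median -0.01). The Zfp900 to Zfp999 genes, at 25.5% lower and a median of -0.11, were thus further below 0 than either set by description, and the difference was not tested.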

How the data were processed

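The authors deposited 1 table of unnormalized read counts, with a column for each library. Per the submitters' processing notes, the build is GRCm38 and the tools include featureCounts 2.0.3, HISAT2 2.2.1 and fastp 0.22.0. Which annotation, strand option and rule for multiply matching reads applied is not given in the sources used here. Symbols, positions and coding sequences came from GENCODE M21.

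With R 4.3.3, edgeR 4.0.16 and limma 3.58.1, filterByExpr (default minimum of 10 counts) kept 15748 genes. One quasi-likelihood fit of 6 libraries with TMM factors and 3 group means was tested two-sided, with Benjamini-Hochberg adjustment over all genes and calls under 0.05. The tests were tried on simulated counts. The members and gene lists were chosen with earlier results of these data known. The rule for naming took up to 12 rises and 12 falls called at 6 h against 0 h, up to 6 of each at 6 h against 3 h, the 5 genes of highest RPKM, and the 5 most abundant uncalled ones. Alternatives were DESeq2 1.42.0, limma voom, other size factors and filters, a replicate block, a GC offset, fits of 4 libraries, members of at least 90% unique words and leaving out each library. The legacy edgeR test was added after seeing the data. A chi-square statistic between the 2 libraries of each time was 2.05 to 6.84 per degree of freedom, so neither library of a time was a copy of the other. Libraries of different times were not compared in this way. Same-numbered libraries did not deviate together (correlations -0.021 to 0.04).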

Additional observations from a re-analysis of the deposited data

How the results depend on the processing

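No change of sign was found among the 32 calls at 6 h. The median of the tested genes was below 0 in all fits of all 3 comparisons, except 0.012 for genes of at least 90% unique words at 6 h against 3 h. At 3 h against 0 h, limma voom, the 4 libraries alone, the legacy test and the GC offset each called 1 gene, and the fits without 1 library called 0 to 1, with medians from -0.094 (without 3 h replicate 2) to -0.022 (without 3 h replicate 1). At 6 h against 0 h, 12 genes were called with no filter, 8 by DESeq2 and 6 among genes of at least 90% unique words, of which 22 were tested. Without 1 library the count ran from 10 (without 0 h replicate 2; 11 without 6 h replicate 1) to 16, and the median from -0.147 (without 0 h replicate 1) to -0.089. At 6 h against 3 h, 7 were called with no filter, 4 by DESeq2 and 5 (3 higher and 2 lower) among the unique genes. Without 1 library the count ran from 4 (without 3 h replicate 2) to 13, with 7 without 6 h replicate 2 and 8 without 6 h replicate 1, and the median from -0.089 to -0.026. Medians at 6 h against 3 h were -0.037 with no filter and -0.028 with the GC offset. Some of these counts rest on fewer genes or libraries, and the cause of the differences was not tested.

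Library sizes without scaling factors moved the median of all genes to 0.037 at 6 h against 0 h and the split of all calls from 1575 higher and 1940 lower to 2128 and 1457. The zinc finger genes then had 5 higher and 12 lower, with a median of -0.071, and a median of -0.036 at 6 h against 3 h. The replicate block treats same-numbered libraries as pairs, which the labels do not state. With it, 2 genes were called at 3 h, 20 at 6 h against 0 h and 13 at 6 h against 3 h. Over all genes the 3 h calls went from 22 to 242. DESeq2 called 12, 1697 and 1438 of all genes in the 3 comparisons, and edgeR with no filter 0, 2029 and 1725.

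Depth limits the lowest genes: 3 counts stood for up to 0.181 CPM, and of the 8 untested genes only Zfp957 had enough unique sequence for that bound to hold. With 2 libraries a time, the loss of 1 leaves a lone library that is assumed to vary like the others.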

Other observations

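A list of 16 genes held silencing partners of KRAB zinc fingers, such as Trim28 and Setdb1, together with broader chromatin factors. Of these, 6 (37.5%) were called lower and 1 (6.25%) higher at 6 h against 0 h. The shares were 12.3% and 10.0% over all genes tested. Over all genes of at least 50 CPM, a level that all 16 reached, they were 26.2% and 7.76%. The median log2 fold change of the 16 was -0.03, and the difference in shares was not tested. The one that rose was Chd4, the nucleosome remodelling ATPase of the NuRD complex, at 692 ± 3.6 CPM at 0 h and 878 ± 21.0 CPM at 6 h (SD, n = 2; 0.34 ± 0.03, edgeR adjusted p = 7.03e-07). Those that fell were Uhrf1, which links histone marks to maintenance of DNA methylation (-0.23 ± 0.03), Atrx, a chromatin remodeller (-0.20 ± 0.03), Smarcad1 (-0.19 ± 0.04), Cbx5, which encodes heterochromatin protein HP1 alpha (-0.18 ± 0.03), Atf7ip, a partner of Setdb1 (-0.17 ± 0.04), and Morc3 (-0.13 ± 0.04). Trim28, the protein that binds the KRAB box, stood at 1370 ± 2.39 CPM at 0 h and 1330 ± 2.37 CPM at 6 h and was not called (-0.03 ± 0.03, adjusted p = 0.41). Setdb1 was not called either (-0.04 ± 0.04, adjusted p = 0.496).

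Of 6 KRAB zinc finger genes with described targets, 5 were tested. Zfp568, known for silencing the placental promoter of Igf2, fell at 6 h from 266 ± 5.57 to 190 ± 3.03 CPM (SD, n = 2; -0.48 ± 0.04, adjusted p = 8.07e-08), and Zfp819 by 0.43 ± 0.07 (adjusted p = 0.000526). Zfp57, which keeps imprinted methylation, changed by -0.10 ± 0.03 (adjusted p = 0.028). Zfp809, which silences retroviruses through their primer binding site, was not called (-0.12 ± 0.06, adjusted p = 0.173), nor was Zfp932 (-0.09 ± 0.08, adjusted p = 0.435), itself one of the 63 genes and known for restraining endogenous retroviruses. Among 16 P-body and translational repression genes that include Ddx6, 3 were called lower at 6 h against 0 h (Patl1, Dcp2 and Dcp1a) and 1 higher (Lsm14b), or 25.0% called against 22.3% of all genes tested, a share near that of all genes.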
